A study of Sus scrofa with 6 samples.

Results

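The enzymes that make and salvage NAD were examined in porcine oocytes by RNA sequencing (RNA-seq). The group was chosen by name and holds 10 genes, namely NAMPT, NMRK1, NMNAT1, NMNAT2, NMNAT3, NAPRT, NADSYN1, QPRT, NADK and NNMT. All 10 were found among the 29861 genes of the deposited expression table. There were 6 samples, with 2 each from control oocytes, heat-stressed oocytes, and oocytes exposed to heat stress in the presence of nicotinamide mononucleotide (NMN). The study asked how NMN supplementation acts on heat-stressed oocytes, and the comparisons here ask whether transcripts of the enzymes that convert NMN and the other NAD precursors differed between the groups. By the study's methods, cultured germinal vesicle (GV) oocytes, which are arrested in meiotic prophase, were held at an elevated temperature for 24 hours and returned to the control temperature, with NMN in the maturation medium during the heat. The labels give the stage of all 6 samples as GV and the time as 24 hours, whereas the methods say that metaphase II oocytes were collected. The labels do not state the NMN concentration used for the sequenced oocytes, and no sample with NMN at the control temperature was analysed here. Nothing states that the 2 samples of a group came from separate collections, so the P-values below measure the spread between these samples, which may be technical.

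NAD carries electrons in energy metabolism and is also consumed by sirtuins, by poly(ADP-ribose) polymerases and by NAD glycohydrolases, so cells refill it continuously. In the salvage route, NAMPT joins nicotinamide to a phosphoribosyl group to give NMN, and NMRK1 makes NMN from nicotinamide riboside. The NMNAT enzymes then add an adenylyl group to NMN, with NMNAT1 in the nucleus, NMNAT2 at the Golgi and in the cytosol, and NMNAT3 in mitochondria. NAPRT starts the route from nicotinic acid, and QPRT makes the same mononucleotide in the de novo route from tryptophan. An NMNAT enzyme adenylates this mononucleotide, and NADSYN1 then amidates the product to NAD. NADK phosphorylates NAD to NADP, the carrier of reducing power, and NNMT methylates nicotinamide and so withdraws it from salvage. A growing oocyte stores transcripts for maturation, when its transcription is largely silent.

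Transcript levels were given as FPKM, which scales the fragments of a gene to its length and to the size of the library and can be compared between genes. The summed FPKM of a sample lay between 163929 and 290136, and between 15707 and 17163 genes were above 0. Of the oocyte markers, 12 of 14 had a mean of at least 1 FPKM, led by BMP15, MOS and GDF9. All 14 summed to 3551 and 3732 FPKM in the control samples, 3523 and 3532 FPKM after heat stress and 3382 and 3129 FPKM with NMN. Of the 12 tested, 4 fell and 1 rose in heat-stressed against control oocytes (median log2 fold change -0.18), by the test described below. In NMN-supplemented against heat-stressed oocytes 1 fell and 1 rose (median -0.17). In NMN-supplemented against control oocytes 6 fell and 1 rose (median -0.37). Of all tested genes, 22.8%, 13.6% and 41.3% passed in these comparisons, in either direction. Mitochondrially encoded transcripts took 66.4% and 61.7% of the summed FPKM in control, 62.4% and 71.6% after heat stress and 74.2% and 74.7% with NMN. The sum over 18 cumulus or granulosa cell markers was 6.54 and 5.62 FPKM in the control samples, 7.81 and 8.16 FPKM after heat stress, and 8.98 and 8.96 FPKM with NMN. The difference between the sums lay mostly in GREM1, from 1.73 to 2.48 FPKM in control to 2.87 to 3.58 FPKM in the heated samples, and KITLG, from 2.02 to 2.25 FPKM to 2.89 to 3.44 FPKM. Of 7 of these markers tested with a minimum mean of 0.1 FPKM, these 2 rose in either heated group against control. Of all genes tested with this minimum, 16% passed for heat stress against control and 27.8% for NMN against control. Against control, 4 and 5 of the 7 fold changes were above 0 for heat stress and for NMN. SERPINE2 (0.692 to 1.09 FPKM) and CYP19A1 (0.109 to 0.455 FPKM) did not pass, and AMH and INHA were listed at 0 in all 6 samples. The 5 stromal markers summed to 0.282 to 0.569 FPKM, nearly all from COL1A2 and DCN, with COL1A1 at 0 in every sample. The 5 blood markers summed to at most 0.474 FPKM, from CD68, CD14 and HBB. CD68 had 0.381 and 0.439 FPKM in the control samples, 0 and 0.149 FPKM after heat stress and 0 in both samples with NMN. As the only blood marker tested with a minimum of 0.1 FPKM, it was called lower in either heated group against control.

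NADK was by far the most abundant of the 10 transcripts. It had 26.9 and 30.6 FPKM in the control samples, 29.1 and 26.2 FPKM after heat stress and 30.5 and 29.6 FPKM with NMN. Its mean of 28.8 FPKM placed it at rank 337 of all genes, with 1.13% of genes above it, and it made up 89.4% to 91.1% of the summed FPKM of the 10 genes in each sample. NMNAT1 followed at a mean of 1.82 FPKM (rank 3396) and NAMPT at 0.641 FPKM (rank 5897). Both steps in this order were the same in 6 of 6 samples, and the ranges of neighbouring genes did not overlap, since NADK was 12.9 to 25.4 times NMNAT1 and NMNAT1 was 1.68 to 4.34 times NAMPT. NAMPT was in turn 1.66 to 4.23 times NMRK1 (mean 0.239 FPKM) in each sample. Below this, the ranges of NMRK1 and NMNAT3 (mean 0.186 FPKM) overlapped, as did those of NMNAT3 and NMNAT2 (mean 0.109 FPKM), so their order was not resolved. NAPRT, QPRT and NADSYN1 were listed at 0 in some samples, and NNMT in all. Among the 3 NMNAT genes, the nuclear NMNAT1 held 78.8% to 90.7% of their summed FPKM.

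**Figure D1:**
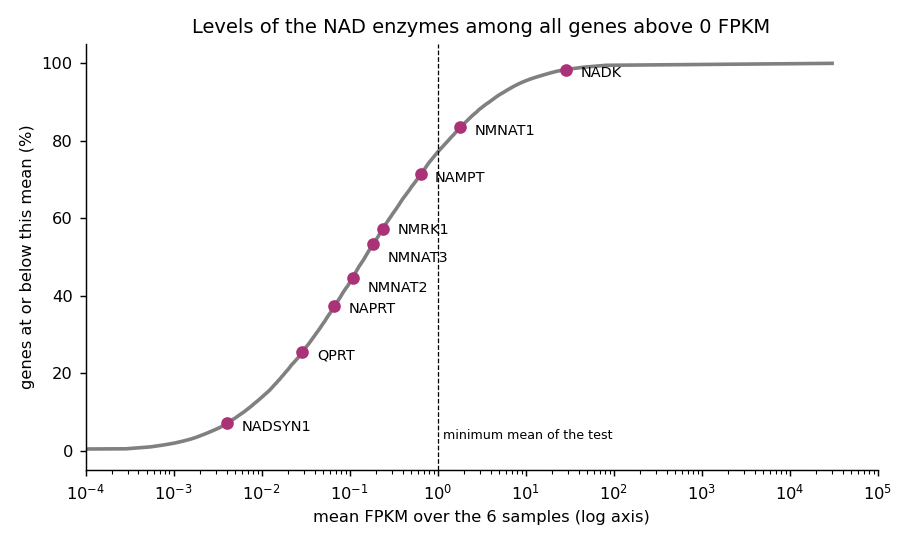
Mean FPKM over the 6 samples (log axis) against the percentage of the 20552 genes with a value above 0 that lie at or below that mean. Purple points are the 9 NAD enzymes with a value above 0, and the dashed line is the minimum mean of 1 FPKM for the main test, which only NADK and NMNAT1 exceeded.

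The depth behind these levels differed widely. Low FPKM values, scaled by transcript length, piled up at a common value to 1.64 times their surroundings, from which the worth of 1 fragment was roughly estimated. On that estimate, and for the longest transcript of each gene, NADK rested on about 671 to 1117 fragments per sample, NMNAT1 on about 47.2 to 65.7 and NAMPT on about 21.1 to 39.2. With the shortest transcript instead, NMNAT1 rested on about 12.9 to 17.9 and NAMPT on about 9.74 to 18.1. The values that follow are again for the longest transcript. NMNAT2, whose transcript is long, rested on about 7.07 to 9.88 fragments, NMNAT3 on about 1.51 to 4.94 and NMRK1 on about 1.49 to 3.51. The last 3 genes therefore had counts at which sampling alone moves a value strongly.

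The groups were compared with limma on log2(FPKM + 1), fitted over all 6 samples and all 4713 genes with a mean of at least 1 FPKM, and a gene was counted as changed at an unadjusted P under 0.05. Such a gene has a 95% confidence interval of its log2 fold change that excludes 0. None of the 2 members tested (NADK and NMNAT1) passed in heat-stressed against control oocytes, where 22.8% of all tested genes passed. None passed in NMN-supplemented against heat-stressed oocytes (13.6% of all genes) or in NMN-supplemented against control oocytes (41.3% of all genes). With Benjamini-Hochberg adjustment, 0%, 0% and 21.5% of all genes passed in these comparisons, and neither member did. The median log2 fold change over all 4713 genes was 0.05, 0.08 and 0.11 in the same order. When the minimum mean was lowered to 0.1 FPKM, 6 members were among 11651 tested genes, and again 0 of 6 passed in each of the comparisons, where 16%, 9.96% and 27.8% of all genes did (0%, 0% and 0.738% with adjustment). The median log2 fold change of the 6 members was -0.03 for heat stress against control, 0.00 for NMN against heat stress and 0.05 for NMN against control, beside -0.00, 0 and -0.01 for all genes. The 3 comparisons share samples and are not independent. For any 1 gene, 2 samples against 2 limit a two-sided exact permutation P to 0.333 or more, which is why limma's shared estimate of the spread was used.

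**Figure D2:**
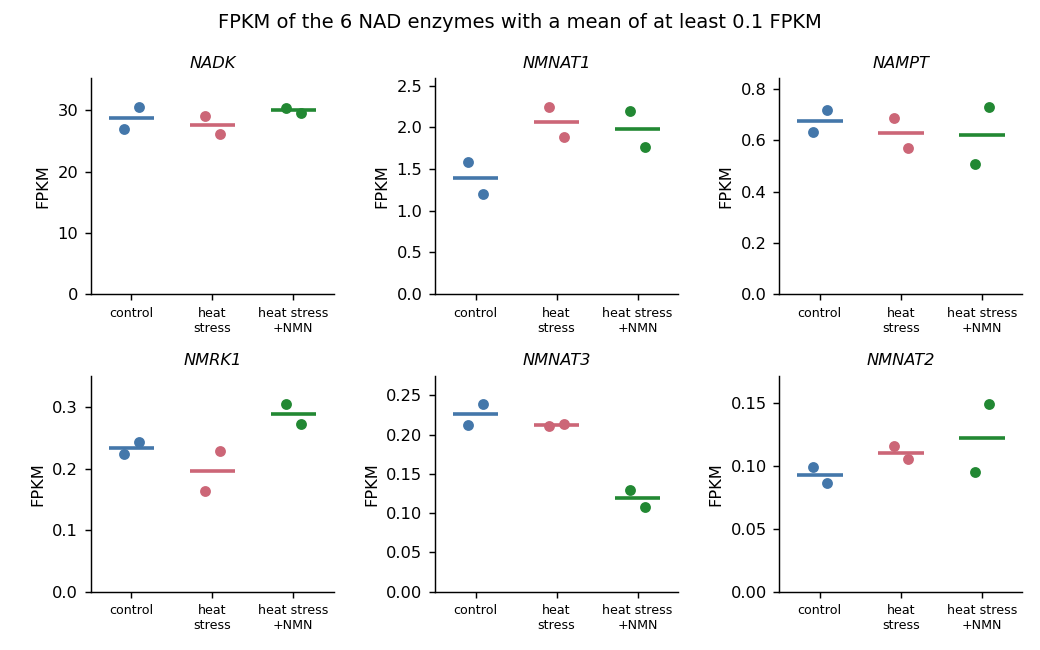
FPKM of the 6 NAD enzymes with a mean of at least 0.1 FPKM, with 1 point per sample, a bar at the mean of the 2 samples of a group, and axes that start at 0. NADK varied little, NMNAT1 was lower in both control samples than in all 4 heated ones, and NMNAT3 was lower in both NMN-supplemented samples than in the other 4.

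NADK, the NAD kinase, stayed within 1.17-fold over the 6 samples. Its mean was 28.7 ± 2.65 FPKM in the control group, 27.6 ± 2.03 FPKM after heat stress and 30.0 ± 0.594 FPKM with NMN (SD, n = 2). The SD of its log2 values over the 6 samples was 0.091, and 3.73% of the 4713 tested genes had a smaller one. For heat stress against control the log2 fold change of NADK was -0.05 (95% confidence interval -0.35 to 0.25, adjusted P = 0.802). Both NMN-supplemented samples lay above both heat-stressed samples, but the log2 difference of 0.12 (-0.18 to 0.42) did not pass (adjusted P = 0.621) and was 0.0028 with quantile normalization. Against control it was 0.06 (-0.24 to 0.37, adjusted P = 0.715), and with quantile normalization -0.058. The intervals therefore leave room for shifts of up to about 0.42 on the log2 scale.

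The tested genes whose log2 values over the 6 samples were most like those of NADK, once each gene was centred on its mean, were SNX3, a sorting nexin of endosomes, HPRT1, a purine salvage enzyme, and INCENP, a subunit of the chromosomal passenger complex. Their root mean square differences from NADK were 0.0266, 0.0279 and 0.0300, beside a median of 0.229 over 4712 genes. Like NADK, HPRT1 was highest in control replicate 2 (3.68 FPKM) and lowest in heat-stressed replicate 2 (2.96 FPKM). Such likeness follows from the choice of these genes on the same 6 values and is no separate result. NADK varied little, so the choice favoured genes that varied little.

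The mitochondrial NAD kinase NADK2 was far lower than NADK, at 0.148 to 0.352 FPKM, so that NADK was 86.6 to 207 times as abundant. In the Sscrofa11.1 annotation, NADK lies on chromosome 6 from 63846650 to 63864137 on the minus strand with 10 transcripts. Its first exon of 142 nt lies wholly within an exon of LOC110261347, a gene on the opposite strand (63863198 to 63868103). LOC110261347 itself was listed at 22.2 to 31.7 FPKM, a level close to that of NADK. The library kit is not stated to mark the strand, so fragments wholly within these 142 nt cannot be assigned to either gene by strand. The 142 nt are 3.88% of the exonic sequence of NADK.

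**Figure D3:**
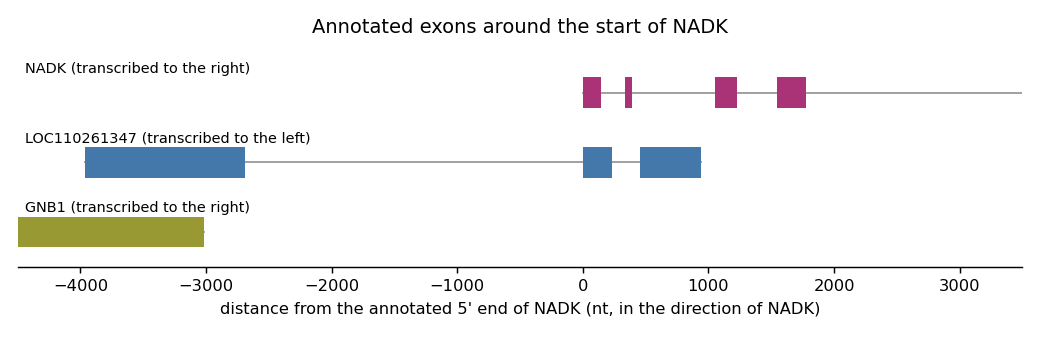
Annotated exons (boxes) and introns (lines) around the start of NADK, drawn to scale against the distance in nt from its annotated 5′ end, with the end of the neighbouring gene GNB1. The first NADK exon of 142 nt overlaps an exon of the oppositely oriented LOC110261347, and the other NADK exons do not.

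NMNAT1, the nuclear enzyme that turns NMN into NAD, had 1.59 and 1.21 FPKM in the control samples, 2.25 and 1.89 FPKM after heat stress and 2.20 and 1.77 FPKM with NMN. Both control samples were below all 4 heated samples, and the heat-stressed and NMN-supplemented samples overlapped. The means were 1.40 ± 0.268, 2.07 ± 0.255 and 1.98 ± 0.302 FPKM (SD, n = 2). The log2 fold change was 0.36 for heat stress against control (95% confidence interval -0.02 to 0.74), which did not pass (adjusted P = 0.232). It was 0.32 for NMN against control (-0.06 to 0.69, adjusted P = 0.172). Between the heated groups it was -0.04 (-0.42 to 0.33, adjusted P = 0.902). With a pseudocount of 0.1 FPKM, which compresses a gene of this level less, the difference between heat stress and control was 0.54 (-0.00 to 1.09) in the fit of 11651 genes.

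The call for NMNAT1 in heat-stressed oocytes sat at the threshold. In limma it passed with quantile normalization (log2 fold change 0.38), with samples scaled to the same median (0.37), with the replicate number as a block (0.36) and without control replicate 1 (0.47). It did not pass without control replicate 2 (0.25) or either heat-stressed sample (0.27 without replicate 1 and 0.44 without replicate 2). In heat-stressed replicate 1 a single pseudogene, LOC100513953, took 13.9% of the summed FPKM. GREM1 and KITLG, which carried the summed cumulus and granulosa markers, were also higher in all 4 heated samples. Of the other markers, AMH and INHA were listed at 0, and SERPINE2 and CYP19A1 were above 0 in every sample. The part of these markers in the NMNAT1 levels was not tested. The number of adherent cells and the RNA per cell cannot be told apart in such bulk samples. NMNAT1 lies on chromosome 6 from 70271296 to 70307403 on the plus strand and shares 109 nt of its 4574 exonic nt with LZIC on the other strand, which was listed at 12.7 to 18.3 FPKM, above NMNAT1 in every sample.

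NAMPT, the rate-limiting enzyme of salvage from nicotinamide, was present at a low and even level. It had 0.631 and 0.717 FPKM in the control samples, 0.687 and 0.571 FPKM after heat stress and 0.506 and 0.732 FPKM with NMN. All 3 groups overlapped, and the widest spread was between the 2 NMN-supplemented samples. In the fit with a minimum of 0.1 FPKM the log2 fold changes were -0.04 for heat stress against control (adjusted P = 0.884), -0.01 for NMN against heat stress (adjusted P = 0.990) and -0.05 for NMN against control (adjusted P = 0.798). All 3 turned in sign with quantile normalization or with samples scaled to the same median, to between 0.0073 and 0.056. As fitted, the intervals ran from -0.34 to 0.27 over the comparisons. With the pseudocount of 0.1 FPKM they widened and ran from -0.72 to 0.57. NAMPT (chromosome 9, 106119896 to 106162126, minus strand) shares 2972 of its 4780 exonic nt, or 62.2%, with exons of LOC110255500 on the other strand. That gene was listed at 0.0220 to 0.0994 FPKM, below NAMPT in every sample.

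NMRK1, the nicotinamide riboside kinase, had 0.224 and 0.243 FPKM in the control samples, 0.163 and 0.228 FPKM after heat stress and 0.304 and 0.272 FPKM with NMN. Both NMN-supplemented samples were above the other 4. The difference from heat-stressed oocytes was 0.11 on the log2(FPKM + 1) scale (adjusted P = 0.585) and 0.40 with the pseudocount of 0.1 FPKM (-0.22 to 1.02), and neither passed. At the estimated 1.49 to 3.51 fragments per sample, a difference of this size was not resolved. NMRK1 lies on chromosome 1 from 228113323 to 228141890 on the minus strand.

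NMNAT3, the mitochondrial member of the NMNAT family, had the largest difference of the 6 members on the 0.1 FPKM pseudocount scale, at -0.58 (-1.19 to 0.04) for NMN against control. It had 0.213 and 0.239 FPKM in the control samples, 0.211 and 0.213 FPKM after heat stress and 0.130 and 0.108 FPKM with NMN. The NMN-supplemented samples lay below the other 4, and control and heat-stressed samples overlapped. Against heat-stressed oocytes the difference was -0.12 on the log2(FPKM + 1) scale (adjusted P = 0.523) and -0.52 with the pseudocount of 0.1 FPKM (-1.13 to 0.10), and neither passed. Against control it was -0.13 (adjusted P = 0.197), and passed only when the fit held just these 2 groups or lacked heat-stressed replicate 1 or 2, at the same fold change. The levels rested on about 1.51 to 2.05 fragments in the NMN-supplemented samples and 2.77 to 4.94 in the others. NMNAT3 lies on chromosome 13 from 80431405 to 80556808 on the minus strand.

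NMNAT2 (chromosome 9, 124495464 to 124697911, minus strand) had 0.0996 and 0.0865 FPKM in the control samples, 0.116 and 0.105 FPKM after heat stress and 0.0953 and 0.149 FPKM with NMN. The heat-stressed samples lay just above both control samples, and the NMN-supplemented samples spanned them. Its log2 fold changes were between 0.01 and 0.04 in the 3 comparisons, and none passed. With the pseudocount of 0.1 FPKM they were 0.13, 0.07 and 0.19, and the intervals ran from -0.70 to 0.96.

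**Figure D4:**
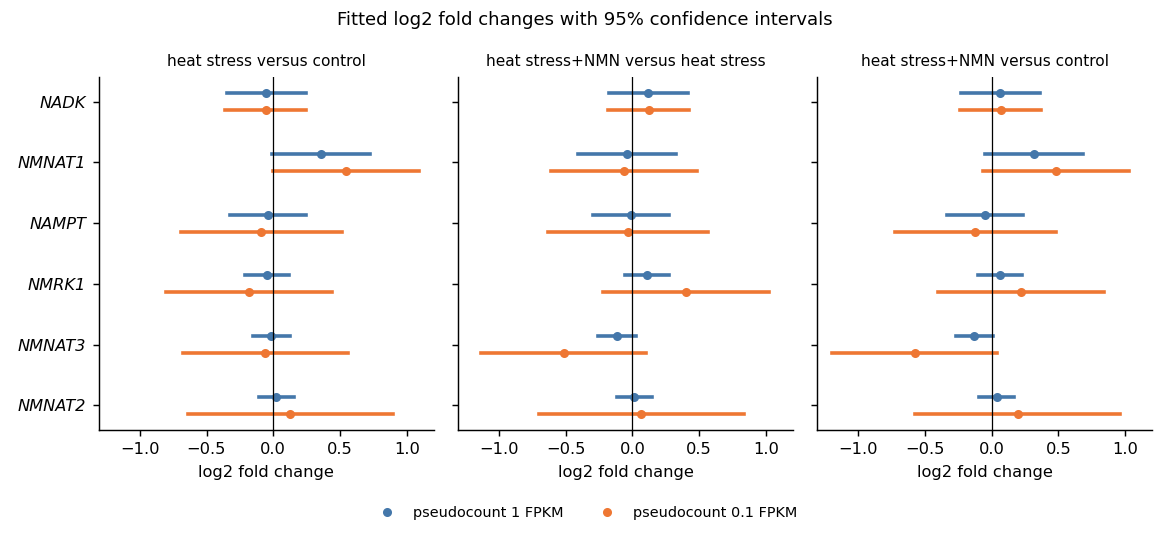
Log2 fold changes with 95% confidence intervals from limma for the 6 members, fitted over 11651 genes with a pseudocount of 1 FPKM (blue) or 0.1 FPKM (orange). All intervals include 0, and those of the genes under 1 FPKM widen with the smaller pseudocount.

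Counted by overlap alone, 2 of the 6 members were separated without overlap in heat-stressed against control oocytes (NMNAT1 and NMNAT2, both higher), where 47.1% of all 11651 genes were. In NMN-supplemented against heat-stressed oocytes 3 were (NADK and NMRK1 higher, NMNAT3 lower), beside 44.8% of all genes. Against control 3 were (NMNAT1 and NMRK1 higher, NMNAT3 lower), beside 60.6% of all genes. These shares were near or below the background.

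The enzymes of the nicotinic acid and de novo routes, and NNMT, were listed at 0 in some or all samples. A zero in this table can be a failed estimate or a level too low to be sampled, and these were not told apart. The housekeeping gene GAPDH was listed at 0 in heat-stressed replicate 1 and at 0.208 to 0.315 FPKM in the other samples. Each value is therefore given, and no fold. NAPRT (chromosome 4) had 0.403 FPKM in control replicate 2, about 7.35 fragments, and was listed at 0 in the other 5 samples. QPRT (chromosome 3) had 0.0473 and 0.0936 FPKM in the control samples, 0.0185 FPKM and 0 after heat stress, and 0.0153 FPKM and 0 with NMN. Each value of QPRT corresponded to no more than about 1.43 fragments. When no minimum was set, QPRT passed the unadjusted limma threshold for heat stress against control and for NMN against control, with an adjusted P of 0.358 and 0.190. NADSYN1 (chromosome 2) had 0.0243 FPKM in heat-stressed replicate 2, about 0.569 of a fragment, and 0 elsewhere. NNMT (chromosome 9), the methyltransferase that withdraws nicotinamide, was listed at 0 in all 6 samples.

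The rest of NAD metabolism was described from lists of related genes. Of 8 genes listed around the de novo route besides QPRT, none reached a mean of 1 FPKM, and TDO2, IDO1 and KYNU were listed at 0 in every sample. HAAO, which makes the substrate of QPRT, had the highest mean of them at 0.00594 to 0.309 FPKM, which rested on the 0.309 FPKM of control replicate 1, and AFMID was above it in 3 of 6 samples. Of 13 genes for the conversion and transport of precursors, 1 reached a mean of 1 FPKM. It was PNP, which splits nicotinamide riboside to nicotinamide among other nucleosides, at 18.6 to 25.9 FPKM. The log2 difference of PNP between NMN-supplemented and control oocytes was 0.27 (-0.07 to 0.61, adjusted P = 0.196) and did not pass. With a minimum of 0.1 FPKM, 7 genes of this list were tested. In NMN against control 1 of them was called, and it was lower, beside 27.8% of all genes called.

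SLC25A51, the carrier that brings NAD into mitochondria, was the most abundant of 5 genes for NADP and mitochondrial NAD. It had 14.7 and 12.7 FPKM in the control samples, 21.3 and 20.1 FPKM after heat stress and 24.3 and 20.3 FPKM with NMN. All 4 heated samples were above both control samples. SLC25A51 rose by a log2 fold change of 0.57 ± 0.14 (SE) in heat-stressed against control oocytes (adjusted P = 0.134). In NMN-supplemented against control oocytes it rose by 0.66 ± 0.14 (adjusted P = 0.0320). In the fit with a minimum of 0.1 FPKM, it did not pass with adjustment. Between the heated groups the difference was 0.09 (-0.25 to 0.44, adjusted P = 0.746). NNT, the mitochondrial transhydrogenase that passes electrons from NADH to NADP, had 2.07 and 2.15 FPKM in control and 2.88 and 2.99 FPKM in NMN-supplemented oocytes, and rose between them by 0.34 ± 0.11 (adjusted P = 0.0754). That call was lost without control replicate 1 (0.32) or either NMN-supplemented sample (0.36 and 0.32). Thus 1 of the 2 genes of this list above 1 FPKM passed in heat stress against control, and both in NMN against control, beside 22.8% and 41.3% of all genes. SLC25A52 was not analysed here. GREM1 and KITLG were also higher in all 4 heated samples, several oocyte markers were lower in the heated groups and the mitochondrial share was highest with NMN, as given above. Their part in these results, and in those for SIRT1, PARP14 and MAT2B below, was not tested.

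Among 22 NAD consumers in the table, 5 had a mean of at least 1 FPKM, and PARP12 was the highest at 3.22 to 4.84 FPKM. The deacetylase SIRT1 had 1.92 and 1.86 FPKM in the control samples, 2.69 and 2.84 FPKM after heat stress and 2.36 and 2.75 FPKM with NMN. It rose by 0.38 ± 0.12 with heat stress (adjusted P = 0.167), and the call was lost without control replicate 2 (0.37) or heat-stressed replicate 2 (0.35). Its increase of 0.30 in NMN-supplemented against control oocytes (adjusted P = 0.116) was lost without any 1 of the 6 samples, with values of 0.22 to 0.38, and with median or nuclear-sum scaling, only these groups in the fit, or the replicate number as a block (0.29 to 0.30).

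The mono-ADP-ribosyltransferase PARP14 had 2.48 and 1.88 FPKM in the control samples, 2.68 and 3.50 FPKM after heat stress and 4.44 and 4.59 FPKM with NMN. It rose by 0.80 ± 0.16 in NMN-supplemented against control oocytes (adjusted P = 0.0294). In the fit with a minimum of 0.1 FPKM, it did not pass with adjustment. Against heat-stressed oocytes it rose by 0.44 (adjusted P = 0.354), a call that was lost without heat-stressed replicate 1 (0.29) or either NMN-supplemented sample (0.46 and 0.42), with nuclear-sum scaling (0.43) and with the replicate number as a block (0.44). Of the 5 consumers, 1 passed for heat stress against control, 1 for NMN against heat stress and 2 for NMN against control, all higher, beside 12.7%, 7.15% and 25.6% of all genes in that direction. With a minimum of 0.1 FPKM, 13 consumers were tested, and 2 were called higher and 1 lower for heat stress against control. For NMN against heat stress 2 were called higher, and for NMN against control 3 were. Of all genes, 16%, 9.96% and 27.8% were called in either direction.

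Of 11 genes that supply phosphoribosyl pyrophosphate or methyl groups, 4 were above a mean of 1 FPKM. PRPS2, which makes phosphoribosyl pyrophosphate for NAMPT, NAPRT and QPRT, was the highest at 5.30 to 6.76 FPKM. Its log2 fold change with heat stress was -0.00 (-0.36 to 0.36, adjusted P = 0.991). MAT2B, the regulatory subunit for synthesis of the methyl donor S-adenosylmethionine, had 1.50 and 1.32 FPKM in the control samples, 2.58 and 2.52 FPKM after heat stress and 2.13 and 1.97 FPKM with NMN. It rose by 0.56 ± 0.11 with heat stress (adjusted P = 0.118). In NMN-supplemented against control oocytes it rose by 0.34 (adjusted P = 0.0833), which was lost without control replicate 2 or either NMN-supplemented sample (0.29 to 0.38). Of the 4 genes of this list, 1 passed for heat stress against control, 0 for NMN against heat stress and 1 for NMN against control, beside 22.8%, 13.6% and 41.3% of all genes. With a minimum of 0.1 FPKM, 8 genes of this list were tested. For heat stress against control 1 was called, and it was higher. For NMN against heat stress 1 was called, and it was lower. For NMN against control 1 was called higher and 1 lower. Of all genes, 16%, 9.96% and 27.8% were called in these comparisons.

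**Figure D5:**
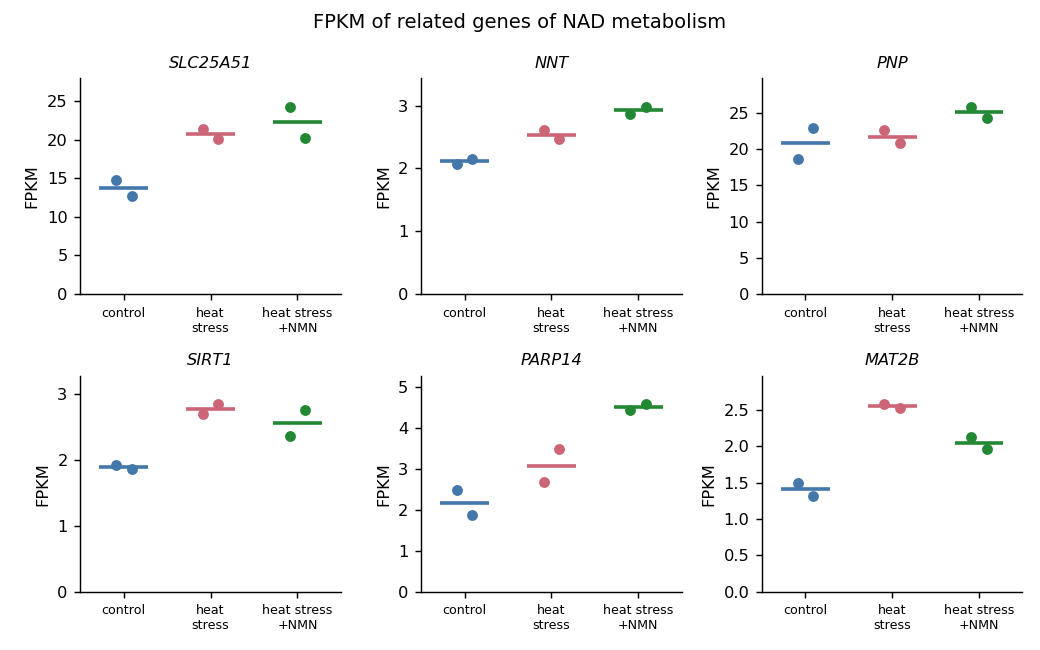
FPKM of 6 related genes of NAD metabolism, with 1 point per sample, a bar at the mean of the 2 samples of a group, and axes that start at 0. SLC25A51, SIRT1 and MAT2B were higher in all 4 heated samples than in control, and PARP14 and NNT were highest in the NMN-supplemented samples.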

How the data were processed

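The 6 RNA-seq samples of porcine oocytes were put in the 3 groups by their labels. Per the study's methods, adapters were cut with cutadapt and reads mapped with tophat2 to Sscrofa11.1, and the submitters' processing notes name Cufflinks 2.2.1, Cuffnorm and Cuffdiff. The authors deposited FPKM values of 29861 genes per sample, which were used here. Of that table, 9 columns with the authors' own log2 fold changes, p-values and q-values, and both lists of differentially expressed genes, were not used. Depth was only estimated, from the steps between low FPKM values, since no counts per gene were used.

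FPKM were analysed as log2(FPKM + 1) for genes with a mean of at least 1 FPKM over the 6 samples. One model of the 3 groups was fitted in R 4.3.3 with limma 3.58.1, using moderated variances with a trend on the mean. P-values are two-sided, and adjusted P are by Benjamini-Hochberg over all tested genes. The fit was checked on simulated data. Members under 1 FPKM were taken from the same fit with a minimum of 0.1 FPKM. The alternatives were a pseudocount of 0.1 FPKM, other minimums, quantile, median and nuclear-sum scaling, no variance trend, only the compared groups, the replicate number as a block and leaving out each sample. The combinations of these with the minimum of 0.1 FPKM, and all alternatives for the related genes, were added after seeing the data. Gene positions are from the RefSeq annotation of Sscrofa11.1. The figures were drawn with Python 3.11.15.

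Named were all 10 members, from each related list the genes with an unadjusted P under 0.05 (at most 4) and the most highly expressed gene, the 3 genes most like NADK and the 3 highest of each marker list. Genes that overlap a member, NADK2, GNB1, the genes listed at 0 and LOC100513953 were named after their values were seen. The members and lists were chosen with earlier results of these data known.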

Additional observations from a re-analysis of the deposited data

How the results depend on the processing

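Of 261 values of the members' log2 fold changes under the alternatives, 235 kept their direction and their side of the threshold, 7 passed it and 19 turned in sign, none of which passed it. The number of members past the threshold in heat stress against control went from 0 to 1 (NMNAT1) with quantile normalization, with scaling to the same median and with the replicate number as a block, and ranged from 0 to 1 when samples were left out. With no minimum it was 1 (QPRT) in that comparison and 1 in NMN against control. With quantile normalization and scaling to the same median, in this order, the log2 fold changes that turned were 0.0080 and 0.0073 for NAMPT and 0.023 and 0.0055 for NMNAT3 in heat stress against control, and for NAMPT 0.046 and 0.048 in NMN against heat stress and 0.054 and 0.056 in NMN against control. That of NADK in NMN against control was -0.058 with quantile normalization. When each sample was left out, NADK ranged from -0.14 to 0.037 in heat stress against control and from -0.027 to 0.16 in NMN against control, NAMPT from -0.091 to 0.012, -0.11 to 0.089 (0.040 without heat-stressed replicate 1) and -0.15 to 0.050 in the 3 comparisons, and in NMN against heat stress NMNAT1 ranged from -0.15 to 0.060 and NMNAT2 from -0.020 to 0.049.

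Over all genes, 1074, 641 and 1948 passed in the 3 comparisons, against 1865, 1161 and 3236 with a minimum of 0.1 FPKM, 468, 266 and 791 with 5 FPKM, and 2388, 1557 and 3700 with none, which change the number of genes tested. Leaving out 1 sample gave 648 to 1015, 327 to 701 and 1233 to 1941. In NMN against heat stress, the 337 higher and 304 lower genes became 218 and 310 with quantile normalization and 224 and 327 with nuclear-sum scaling. The cause was not tested.

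Same-numbered samples did not deviate together (correlations of -0.03, 0.01 and -0.01 over 4713 genes). The labels do not state whether they share a collection, and these correlations cannot exclude it. With the replicate block, PARP14 in NMN against heat stress (0.44) and SIRT1 in NMN against control (0.30) no longer passed. Of 137 values for the related genes, 114 stayed past the threshold, 23 did not and none turned in sign, and SLC25A51 passed in all 16 alternatives for each of its called comparisons. These calls are on the unadjusted P, and neither SLC25A51 nor PARP14 passed with adjustment when the minimum was 0.1 FPKM. Leaving out 1 sample leaves a lone sample in a group, which is then assumed to vary like the others. The low depth of NMRK1, NMNAT3, QPRT and NADSYN1, at a few fragments or fewer per sample, limits what can be said of them.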
